A study of Homo sapiens and Mus musculus with 55 samples.

Results

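The genes described here are 9 mediators of inflammation that tumour cells can themselves produce: the interleukin-1 family members IL1A, IL1B, IL18 and IL33, the interleukin-6 type cytokines IL6, IL11 and LIF, the growth factor CSF2 and the prostaglandin-forming enzyme PTGS2. They were taken by symbol, with the title-case orthologs in mouse, from a total of 67107 human and mouse gene symbols listed in 10 expression tables. All 9 had a row in 8 of the tables, while IL33 had none in the SUM159PT STING sgRNA table and IL33 and CSF2 had none in the SUM159PT open reading frame table. A gene was tested where its mean over a table's libraries reached 10 normalised reads, which left 69 of 90 pairs of a member and a comparison.

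The study concerned the DNA-sensing adaptor STING and the transcription factor MYC in triple negative breast cancer lines, and it holds 55 RNA-seq libraries in 25 groups. For the established human lines MDA-MB-436 and SUM159PT it has parental cells and a derivative named Tax-R, a name the labels do not spell out (2 libraries each). Tax-R cells of both lines were given a control siRNA (siC) or 1 of 2 MYC siRNAs (siMYC1 and siMYC2; 2 libraries each), so every siRNA group is Tax-R. A separate set has mock cells, labelled as parental cells for CRISPR, and 2 samples with a STING sgRNA (C1 and C2; 2 libraries each), and whether these are clones is not stated. Cells that carry the STING sgRNA were also given an open reading frame (ORF) of GFP or of STING (2 libraries each), and the labels do not say which of C1 and C2 they derive from. The mouse mammary tumour line 4T1, not a Tax-R derivative, received siC, siMYC1 or siMYC2 (3 libraries each). The mouse mammary tumour line Py230 carried a Sting1 shRNA in every library and was given vehicle or doxycycline (3 libraries each). No group lacks that shRNA, so the drug and the knockdown cannot be told apart. Nothing says that libraries of a group came from separate cultures, so the p-values measure only the spread between these libraries.

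Interleukin-1 alpha and beta bind the receptor IL1R1 and act through the adaptor MYD88 on the transcription factor NF-kB, which in turn drives many cytokine genes. IL18 and IL33 use receptors of their own, and IL1B and IL18 need cleavage by caspase-1 before they act. Interleukin-6 type cytokines signal through the shared receptor chain IL6ST and the kinase JAK1 to STAT3, CSF2 (GM-CSF) recruits and matures myeloid cells, and PTGS2 (cyclooxygenase-2) makes the precursor of prostaglandin E2. STING, once activated by DNA in the cytosol, is known to switch on interferon genes and NF-kB targets.

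The promoters of the members are shown so that the letters before each start can be read beside the values, in all 7 members with an entry in RefSeq's promoter table for GRCh38.p14 (IL18 and LIF were without one). IL1A and IL33 have 2 starts each, of which the more downstream is shown. The 250 bases before each transcription start were searched on both strands. The motifs were the kappa B consensus, the AP-1 motif TGANTCA, the cyclic AMP element core TGACG, the C/EBP-type motif TTNNGNAAT, the E-box CACGTG bound by MYC and the TATA box TATAAA. Each sequence runs 5′ to 3′ on the gene's strand, capitals mark motif matches, and no matches overlapped.
IL6: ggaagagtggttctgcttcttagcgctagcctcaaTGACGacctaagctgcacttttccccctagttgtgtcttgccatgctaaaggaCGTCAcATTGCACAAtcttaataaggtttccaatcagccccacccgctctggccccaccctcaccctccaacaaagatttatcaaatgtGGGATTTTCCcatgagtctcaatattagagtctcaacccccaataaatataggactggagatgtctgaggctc
PTGS2: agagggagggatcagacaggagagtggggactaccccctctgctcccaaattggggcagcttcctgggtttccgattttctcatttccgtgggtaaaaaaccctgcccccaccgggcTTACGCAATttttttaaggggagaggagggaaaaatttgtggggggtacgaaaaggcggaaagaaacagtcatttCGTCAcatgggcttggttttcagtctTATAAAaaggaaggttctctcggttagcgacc
IL1A: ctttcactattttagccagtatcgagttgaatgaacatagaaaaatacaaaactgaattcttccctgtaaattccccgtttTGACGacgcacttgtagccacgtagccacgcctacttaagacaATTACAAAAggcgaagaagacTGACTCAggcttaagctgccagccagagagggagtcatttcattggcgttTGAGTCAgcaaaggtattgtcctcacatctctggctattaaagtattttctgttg
IL1B: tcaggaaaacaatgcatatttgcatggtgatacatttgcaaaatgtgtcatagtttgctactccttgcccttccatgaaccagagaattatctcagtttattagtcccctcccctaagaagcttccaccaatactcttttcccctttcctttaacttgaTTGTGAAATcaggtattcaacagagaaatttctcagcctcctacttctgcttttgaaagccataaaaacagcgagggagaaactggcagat
IL11: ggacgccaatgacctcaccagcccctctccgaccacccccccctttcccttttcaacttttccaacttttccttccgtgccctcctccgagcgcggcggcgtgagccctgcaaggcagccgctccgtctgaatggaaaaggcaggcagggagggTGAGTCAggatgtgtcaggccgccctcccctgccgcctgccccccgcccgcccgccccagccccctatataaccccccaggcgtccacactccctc
CSF2: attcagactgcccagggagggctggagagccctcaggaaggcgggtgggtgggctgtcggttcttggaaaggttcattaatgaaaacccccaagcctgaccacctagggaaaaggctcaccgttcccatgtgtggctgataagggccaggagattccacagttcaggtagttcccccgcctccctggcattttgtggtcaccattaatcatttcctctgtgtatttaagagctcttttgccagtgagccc
IL33: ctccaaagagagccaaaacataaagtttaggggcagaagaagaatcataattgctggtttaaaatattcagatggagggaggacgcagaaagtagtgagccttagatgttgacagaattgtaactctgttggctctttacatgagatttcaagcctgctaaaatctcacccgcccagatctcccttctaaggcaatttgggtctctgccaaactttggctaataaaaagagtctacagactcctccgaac
These lie on the plus strand at chr7:22726950-22727199 (IL6), chr5:132073539-132073788 (CSF2) and chr9:6215557-6215806 (IL33) and, on the minus strand, at chr1:186680424-186680673 (PTGS2), chr2:112784401-112784650 (IL1A), chr2:112836780-112837029 (IL1B) and chr19:55370464-55370713 (IL11). The IL6 window had the kappa B match, which begins 73 bases before the start, and also a C/EBP-type match and 2 cyclic AMP element cores. PTGS2 had a C/EBP-type match 133 bases and a TATA box 32 bases before its start. IL1A had 2 AP-1 matches, at 105 and 55 bases, and IL11 had 1, at 96 bases. IL1B had a C/EBP-type match at 91 bases and no other. The kappa B consensus was in 5.21% of all 35116 promoter windows, AP-1 in 6.57%, TGACG in 21.2%, TTNNGNAAT in 9.85%, CACGTG in 6.34% and TATAAA in 10.7%. None of the 9 windows of members held the E-box, and the windows of CSF2 and IL33 held none of the 6 motifs. A match is a description of letters and says nothing of binding in these cells.

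The libraries held 5663610 to 13191675 reads counted to genes, recovered as whole reads from the deposited values. The STING transcript, listed as TMEM173, went with the labels: it was lower in both lines with the sgRNA (-1.85 ± 0.15 on the log2 scale in MDA-MB-436 and -1.28 ± 0.11 in SUM159PT) and in Py230 with doxycycline (-4.14 ± 0.09), and higher with the STING ORF (4.47 ± 0.16 and 4.37 ± 0.12). TMEM173 was also lower in Tax-R than in parental cells (-1.03 ± 0.07 in MDA-MB-436 and -1.71 ± 0.08 in SUM159PT) and higher in the libraries labelled siMYC (95% interval 1.57 to 2.44 in MDA-MB-436, 0.92 ± 0.10 in SUM159PT and 0.40 ± 0.09 in 4T1), and its part in those comparisons was not tested. MYC was lower in the SUM159PT libraries labelled siMYC (-0.87 ± 0.04) and by far less in those of MDA-MB-436 (-0.09 ± 0.03, limma adjusted p = 0.0144). In 4T1 the difference did not pass the test (-0.09 ± 0.04, limma adjusted p = 0.0683), and the groups overlapped, so the 4T1 groups are called libraries labelled siMYC throughout. Markers of other cell types were counted too, since leukocytes and fibroblasts make these cytokines. T cell markers summed to at most 9.38 normalised reads in any human library. The leukocyte gene PTPRC had means of 309 to 2047 in the MDA-MB-436 groups without siRNA and of 533 in parental SUM159PT, while the myeloid marker CD14 stayed at or below a mean of 32.6 in every human group and AIF1 and TYROBP had no row. Fewer cells of a type and less RNA per cell cannot be told apart in such bulk samples. Because the strand setting of the counting was not given in the sources used here, reads of IL6 cannot be told from those of STEAP1B and an antisense RNA, those of LIF from LIF-AS1, or those of IL18 from an overlapping gene on the other strand, all by GENCODE v29.

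**Figure D1:**
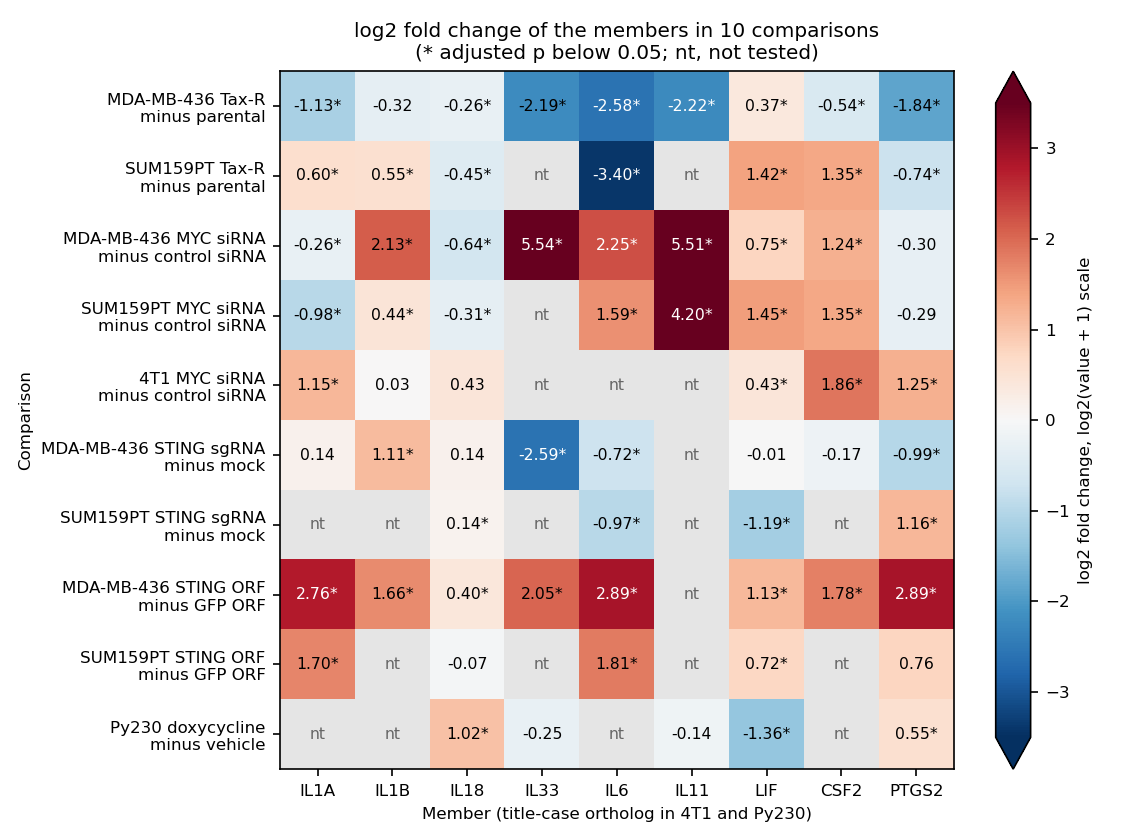
log2 fold changes of the 9 members (columns) in the 10 comparisons (rows), fitted with limma on log2(value + 1), with red for higher and blue for lower. An asterisk marks an adjusted p below 0.05 and nt a member not tested; the 2 IL11 values with MYC siRNA rest on a single control read, and MDA-MB-436 with the STING ORF is the row where all 8 tested members are red and starred.

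In the Tax-R derivative of MDA-MB-436, 7 of 9 members fell and 1, LIF, rose. The largest decrease was that of IL6, the prototype of its family. Of all genes tested in this comparison, 54.6% passed in either direction and 26.9% fell, and the members' median log2 fold change was -1.13 beside 0.01 for all genes. All 9 members had groups that did not overlap, as did 77.1% of all genes. The 2 Tax-R libraries differed by less than sampling noise (mean chi-square of 0.855 per gene, against 1.02 to 2.73 in the other pairs of a group) and may be 1 library. If so, the adjusted p-values of this comparison may be too small. With them counted as 1 sample, that arm has no spread of its own, so calls from that fit are not given.

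IL6 was at 214 and 237 normalised reads in the parental libraries of MDA-MB-436 and at 32 and 42.1 in the Tax-R libraries. IL11, a fibrosis-associated relative of IL6, was at 48.6 and 53 in parental and 11 and 9.23 in Tax-R libraries. PTGS2 was at 494 and 476 in parental and 129 and 141 in Tax-R libraries. In all 3 genes both Tax-R libraries lay far below both parental ones. The log2 fold change of IL6, with its standard error, was -2.58 ± 0.15 (limma adjusted p = 8.88e-08). Those of IL11 and PTGS2 were -2.22 ± 0.23 (1.03e-05) and -1.84 ± 0.07 (4.81e-09). In the interleukin-1 family, the alarmin IL33 fell from 46.9 and 27 to 8.01 and 6.16 (-2.19 ± 0.31, limma adjusted p = 0.000126). IL1A, an alarmin that is active without cleavage, was at 274 and 259 in parental and 119 and 123 in Tax-R libraries. Its log2 fold change was -1.13 ± 0.08 (limma adjusted p = 6.08e-07). Both genes were lower in each Tax-R library, and IL18 fell by a smaller amount (-0.26 ± 0.05). IL1B was at 96.3 and 98.3 in parental and 71.1 and 85.2 in Tax-R libraries (-0.32 ± 0.13, adjusted p = 0.0626), which did not pass.

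LIF, which supports self-renewal in stem cells, went the other way in MDA-MB-436: 542 and 501 in parental and 729.6 and 619 in Tax-R libraries. Its log2 fold change was 0.37 ± 0.07. CSF2 was at 83.5 and 69.4 in parental and 55 and 49.2 in Tax-R libraries, with a log2 fold change of -0.54 ± 0.16 (adjusted p = 0.013). CSF2 was not called with DESeq2 (0.157) or with quantile normalisation (-0.30, adjusted p = 0.0986). LIF and CSF2 both lost the call without either parental library (LIF adjusted p = 0.0623 and 0.114, CSF2 0.167 and 0.0577), and IL1B gained one without Tax-R replicate 2 (0.0231). The myeloid marker sum was 2099 to 2203 in parental and 300.3 to 429.9 in Tax-R libraries, most of it PTPRC. The fibroblast marker sum was 1951 to 2110.4 in parental and 893 to 960.3 in Tax-R libraries, and the basal mammary sum 1666 to 1692 and 542 to 652. The part of these in the cytokine differences was not tested.

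In SUM159PT the Tax-R derivative shared the decrease of IL6 but not the direction of several others. All 7 tested members passed, 4 higher and 3 lower, where 45.7% of all genes passed (23.5% higher, 22.1% lower), 7 had groups that did not overlap (73.2% of all genes), and their median was 0.55 beside 0.01 for all genes. IL6 was at 166 and 217 in parental and 13.3 and 21.8 in Tax-R libraries, a log2 fold change of -3.40 ± 0.24 (limma adjusted p = 3.79e-06). PTGS2 was at 115 and 129 in parental and 76.7 and 68.3 in Tax-R libraries (-0.74 ± 0.14), and IL18 fell by 0.45. LIF was at 184 and 219 in parental and 496 and 586 in Tax-R libraries, an increase of 1.42 ± 0.10 on the log2 scale. The groups were well apart in IL6 and LIF, and per kilobase of exon the level of IL6 was above that of LIF in parental cells (92.5 and 50.8) and far below it in Tax-R cells (8.48 and 136).

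CSF2 in SUM159PT was low, at 12.2 and 8.95 in parental libraries, and reached 28.6 and 27.7 in Tax-R libraries (1.35 ± 0.27, limma adjusted p = 0.00301, though DESeq2 gave 0.0837). IL1A was at 143 and 189 in parental and 253 and 247 in Tax-R libraries (0.60 ± 0.12). IL1B was at 40.7 and 44.7 in parental and 54.2 and 73.3 in Tax-R libraries (0.55 ± 0.20, adjusted p = 0.0473). The 3 genes were higher in both Tax-R libraries than in either parental library. The IL1B call was narrow: it was lost without parental replicate 1 (0.223) or 2 (0.147), without Tax-R replicate 2 (0.317), without the filter (0.102) and with DESeq2 (0.298), and that of PTGS2 without parental replicate 2 (0.0514). IL33 and IL11 were below the filter. IL33 had 9 reads in the parental and 1 in the Tax-R libraries, 9.14-fold lower by normalised means (95% interval 1.32 to 418). IL11 had 13 and 3 reads, 4.49-fold lower by normalised means (95% interval 1.26 to 25.1), and these intervals cover counting error only. The myeloid marker sum was 572 to 599.6 in parental and 33.7 to 44 in Tax-R libraries and the fibroblast sum 1278 to 1309 and 222 to 248. The basal mammary sum was 491 to 543 in parental and 67.5 to 76.2 in Tax-R libraries and the endothelial sum 361 to 371 and 103 to 126, and the part of these was not tested. The signs of IL1A, IL1B and CSF2 differed between the lines, a difference that was not tested because each table was normalised separately.

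**Figure D2:**
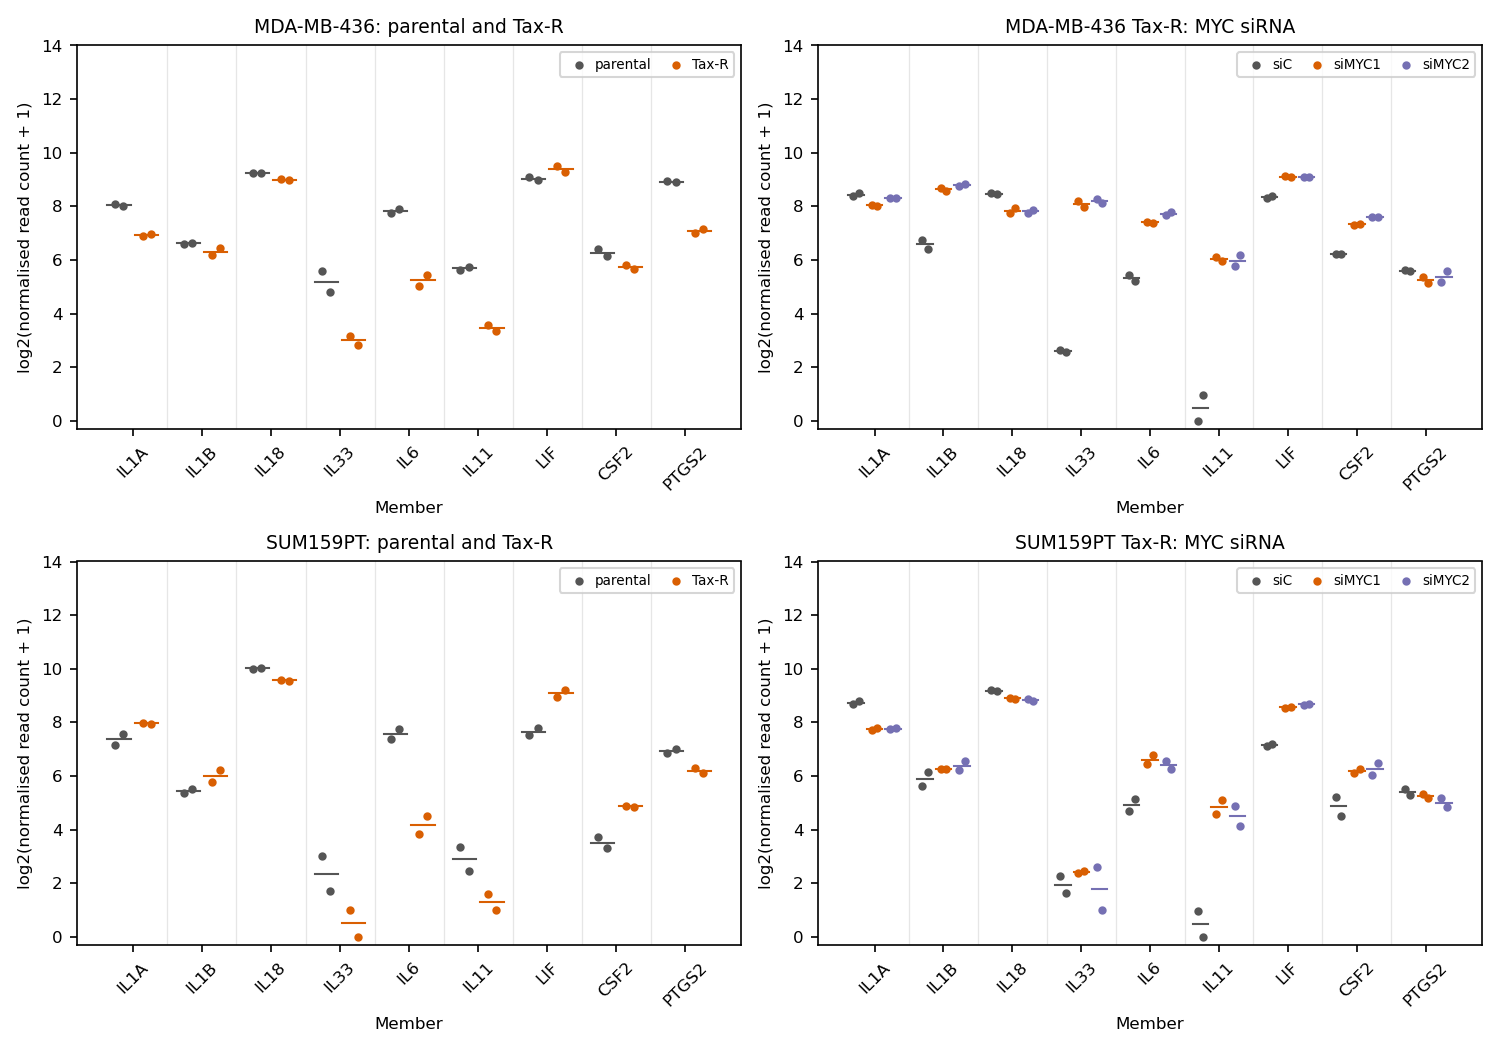
log2(normalised read count + 1) of each member in each library of MDA-MB-436 (top) and SUM159PT (bottom), for parental against Tax-R cells (left) and for Tax-R cells with siC, siMYC1 or siMYC2 (right). Points are libraries and bars group means; IL6 and IL11 drop from parental to Tax-R cells and stand higher with both MYC siRNAs.

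Among Tax-R cells of MDA-MB-436, the libraries labelled siMYC1 and siMYC2 had 6 members higher and 2 lower than siC, out of 9 tested. This was a comparison with broad change, in which 67.7% of all genes passed (34% higher, 33.7% lower). The members' median was 1.24, also with IL11 at the lower bound of its interval, against -0.01 for all genes. All 9 members had groups that did not overlap, as did 72.3% of all genes.

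IL33 was at 5.33 and 4.85 normalised reads with siC in MDA-MB-436, 295 and 252 with siMYC1 and 307 and 280.4 with siMYC2. IL11 was at 0 and 0.971 with siC, 67.4 and 61.7 with siMYC1 and 53.1 and 71.9 with siMYC2. IL33 and IL11 were close to 0 in the controls and far higher in all 4 MYC siRNA libraries. The log2 fold change of IL33 was 5.54 ± 0.14 (limma adjusted p = 1.15e-23). Since IL11 had 1 read over both controls, it is given as a ratio of normalised means with an interval from the reads. It was 133-fold higher (95% interval 22.4 to 5052) with siMYC1 and 129-fold higher (95% interval 21.5 to 4861) with siMYC2. These intervals cover counting error only. IL6 was at 42.6 and 35.9 with siC, at 172 and 167 with the first siRNA and at 202 and 221 with the second, a log2 fold change of 2.25 ± 0.11 (limma adjusted p = 3.07e-16). IL1B, whose protein the inflammasome cleaves, was at 107 and 84.5 with siC, 415 and 378 with siMYC1 and 429 and 453 with siMYC2 (2.13 ± 0.09). Neither gene's groups overlapped.

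The growth factor CSF2 was at 74.6 and 73.8 with siC, 159 and 163 with siMYC1 and 195 and 194 with siMYC2 in MDA-MB-436 (1.24 ± 0.10), and LIF rose by 0.75 ± 0.06. IL18 was at 360.0 and 348 with siC and fell to 214 and 243 with siMYC1 and 217 and 231 with siMYC2 (-0.64 ± 0.08). IL1A was at 334 and 356 with siC, 266 and 257 with siMYC1 and 319 and 317 with siMYC2. All 4 siMYC libraries were below both controls, and the decrease over both reagents (-0.26 ± 0.07) passed with siMYC1 alone (-0.40 ± 0.08) but not with siMYC2 alone (-0.12 ± 0.08, adjusted p = 0.199). PTGS2 did not pass (-0.30 ± 0.19, 95% interval -0.68 to 0.08, adjusted p = 0.159), although quantile normalisation called it lower (0.0403). Myeloid markers summed to 35.9 to 47.9 with siC, 24.7 to 35.2 with siMYC1 and 21.8 to 31.7 with siMYC2, with PTPRC at a mean of at most 3.40. Fibroblast markers summed to 72.4 to 85.4 with siC, 392 to 395 with siMYC1 and 382 to 417 with siMYC2, and their part was not tested.

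In SUM159PT Tax-R cells 5 of 8 tested members rose with the MYC siRNAs, 2 fell and 1 did not pass, with 69.5% of all genes called (35% higher, 34.5% lower). The groups of 7 members did not overlap (73.9% of all genes), and the members' median was 0.89, also with IL11 at its lower bound, beside -0.01. IL11 was at 0.961 and 0 with siC, 23 and 33.7 with siMYC1 and 28.7 and 16.7 with siMYC2. By normalised means it was 59-fold higher (95% interval 9.95 to 2314) with siMYC1 and 47.3-fold higher (95% interval 7.74 to 1831) with siMYC2. IL6 was at 25 and 34.1 with siC, at 85.7 and 108 with the first siRNA and at 92.2 and 75.9 with the second, and its log2 fold change was 1.59 ± 0.17 (limma adjusted p = 7.12e-12). LIF was at 139 and 147 with siC, 372 and 382 with siMYC1 and 405 and 416 with siMYC2 (1.45 ± 0.08). All 3 IL-6 type cytokines stood higher in each siMYC library than in either control. CSF2 was at 36.5 and 21.7 with siC, 67.9 and 74.7 with siMYC1 and 64.6 and 88.7 with siMYC2 (1.35 ± 0.18).

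In the interleukin-1 family of SUM159PT, IL1A was at 408 and 446 with siC and fell to 211 and 220.4 with the first MYC siRNA and 212 and 218 with the second (log2 fold change -0.98 ± 0.08, limma adjusted p = 2.81e-15). IL18 fell by 0.31. IL1B was at 48.1 and 69.3 with siC, 75.2 and 74.7 with siMYC1 and 72.8 and 93.6 with siMYC2 (0.44 ± 0.16, adjusted p = 0.012), and its second control came close to the siMYC libraries. That call was lost without siC replicate 1 (0.401) or siMYC2 replicate 2 (0.0679), with siMYC1 alone (0.0689), without the filter (0.0874) and with DESeq2 (0.133). PTGS2 overlapped between the groups (-0.29 ± 0.20, interval -0.70 to 0.12). IL33, which rose in MDA-MB-436, was below the filter here with 6 reads in siC, 9 in siMYC1 and 6 in siMYC2. The fibroblast marker sum was 289.7 to 307 with siC, 929 to 973 with siMYC1 and 929 to 944 with siMYC2, and the myeloid sum was 69.2 to 77.6 with siC, 44.6 to 48.1 with siMYC1 and 39.97 to 41.4 with siMYC2. The endothelial sum was 62.5 to 74.5 with siC, 152 to 153 with siMYC1 and 139 to 171 with siMYC2, and their part was not tested.

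In mouse 4T1 cells Ptgs2 and Il1a, which did not rise in the human lines, were higher in the libraries labelled siMYC. Of 6 tested members 4 rose and 2 did not pass, where 46.2% of all genes passed (24.7% higher). The groups of 4 members did not overlap (39.3% of all genes), and the median was 0.79 beside -0.0048. Ptgs2 was at 1450.0, 1495 and 1614 with siC, 3871, 3707 and 3449.8 with siMYC1 and 3557, 3585 and 3575 with siMYC2. Il1a was at 599, 549 and 585 with siC, 1453, 1228 and 1225 with siMYC1 and 1259, 1314 and 1245 with siMYC2. Csf2 was at 23.3, 13.8 and 16.5 with siC, 72.9, 56.6 and 51 with siMYC1 and 74.4, 89.4 and 59.7 with siMYC2. In each of these genes all 6 siMYC libraries exceeded all 3 controls. The log2 fold changes were 1.25 ± 0.04 for Ptgs2 (limma adjusted p = 2.3e-17), 1.15 ± 0.05 for Il1a (4.42e-15) and 1.86 ± 0.18 for Csf2 (3.42e-09).

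Lif in 4T1 was at 930.1, 858 and 893 with siC, 1199, 1200.3 and 1187 with siMYC1 and 1185, 1272 and 1204 with siMYC2 (0.43 ± 0.04), again with no overlap. Il1b overlapped between the groups (0.03 ± 0.14, interval -0.27 to 0.32) and so did Il18 (0.43 ± 0.21, limma adjusted p = 0.0903), which passed with siMYC2 alone (0.027). Il6, Il33 and Il11 were below the filter. Il6 had 4 reads in the siC libraries, 13 in siMYC1 and 10 in siMYC2, and without the filter it was called higher (1.31, adjusted p = 0.0289). Myeloid markers in 4T1 summed to 362 to 396 in siC, 343 to 425 in siMYC1 and 346 to 364 in siMYC2, ranges that overlapped. T cell markers summed to 16.5 to 25 in siC, 25.5 to 33.3 in siMYC1 and 25.1 to 35.8 in siMYC2, nearly all Trac. The mesenchymal sum was 17403 to 17869 in siC, 35972 to 39520.1 in siMYC1 and 35216 to 35783 in siMYC2, most of it Fn1, and the part of these was not tested. Between siMYC1 and siMYC2 limma, edgeR and DESeq2 called 0 members in MDA-MB-436, SUM159PT and 4T1, where limma called 0.195%, 0% and 0% of all genes. At an unadjusted p below 0.05 there were 3 members (IL1A, IL6 and CSF2, each higher with siMYC2) and 1569 genes in MDA-MB-436, 0 members and 600 genes in SUM159PT, and 0 members and 372 genes in 4T1.

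With the STING sgRNA in MDA-MB-436, 3 of 8 tested members fell, 1 rose and 4 did not pass, where 47.8% of all genes were called (24.8% higher, 23% lower). The groups of 5 members did not overlap (57.3% of all genes), and the median was -0.09 beside 0.01. IL33 was at 43.9 and 36.9 in mock, 4.01 and 6.26 in C1 and 9 and 5.12 in C2. PTGS2 was at 215 and 202 in mock, 98.2 and 102 in C1 and 119 and 100.3 in C2. IL6 was at 364 and 389.5 in mock, 226 and 234 in C1 and 219 and 233 in C2. Every sgRNA library lay below both mock libraries in these genes. Their log2 fold changes were -2.59 ± 0.34 (IL33, limma adjusted p = 3.34e-07), -0.99 ± 0.11 (PTGS2, 2.06e-08) and -0.72 ± 0.08 (IL6, 1.05e-08).

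IL1B went the other way, at 29.3 and 20.3 in mock, 53.1 and 63.6 in C1 and 40 and 61.4 in C2 of MDA-MB-436 (1.11 ± 0.21, limma adjusted p = 6.12e-05), with all sgRNA libraries above mock. IL1A (0.14 ± 0.19), IL18 (0.14 ± 0.07, adjusted p = 0.0883), LIF (-0.01 ± 0.11) and CSF2 (-0.17 ± 0.19) did not pass, and with C2 alone IL18 did (0.0331). IL11 was below the filter at 30 reads in mock, 6 in C1 and 12 in C2, and without the filter it was lower (0.0138). The myeloid marker sum was 1029.6 to 1057 in mock, 1233 to 1256 in C1 and 1285 to 1327 in C2, nearly all PTPRC. The fibroblast sum was 483 to 499 in mock, 433 to 440.3 in C1 and 435 to 437 in C2. The basal mammary sum was 1246 to 1250.2 in mock, 672 to 683 in C1 and 652 to 660.0 in C2, and the part of these was not tested. Between C1 and C2 limma, edgeR and DESeq2 called 0 members, with 0 at an unadjusted p below 0.05, where limma called 0.797% of all genes.

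In SUM159PT most members were low in mock cells, and 4 of the 8 listed were tested. All 4 passed, 2 in each direction, beside 39.1% of all genes (19.3% higher, 19.8% lower). The groups of 2, LIF and PTGS2, did not overlap (43.8% of all genes), and the median was -0.42 beside -0.0037. IL6 was at 18.1 and 36.5 in mock, 13.3 and 19.9 in C1 and 9.26 and 10.3 in C2 (-0.97 ± 0.31, limma adjusted p = 0.0104), and a C1 library overlapped with mock. LIF was at 25.7 and 25 in mock, 18 and 12.6 in C1 and 5.14 and 10.3 in C2 (-1.19 ± 0.32, adjusted p = 0.00265). PTGS2 was at 6.68 and 16.3 in mock, 24.7 and 33.5 in C1 and 17.5 and 25.7 in C2 (1.16 ± 0.30, adjusted p = 0.00179). Here PTGS2 was higher in each sgRNA library than in mock, where in MDA-MB-436 it was lower, a difference between lines that was not tested. IL18 was at 823 and 744 in mock, 833 and 897 in C1 and 893 and 818 in C2, ranges that overlapped (0.14 ± 0.05, adjusted p = 0.0435).

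These 4 calls in SUM159PT depended on the tool and on the filter. Without the filter on low values none of the 4 passed (adjusted p of 0.147 for IL6, 0.0779 for LIF, 0.138 for PTGS2 and 0.246 for IL18). DESeq2 called 0 of them (adjusted p of 0.098 for IL6, 0.0669 for LIF, 0.0967 for PTGS2 and 0.249 for IL18), while edgeR called 4. IL6 lost its call without mock replicate 2 (0.379) and PTGS2 without mock replicate 1 (0.218, log2 fold change 0.57). IL18 lost its call without mock replicate 2 (0.487), C1 replicate 2 (0.171) or C2 replicate 1 (0.187). With C1 alone IL6 gave -0.63 ± 0.36 (0.215) and LIF -0.71 ± 0.37 (0.171), and with C2 alone -1.31 ± 0.36 (0.00239) and -1.66 ± 0.37 (0.000269). IL18 passed with neither C1 alone (0.0937) nor C2 alone (0.0973). Between C1 and C2 limma, edgeR and DESeq2 called 0 members, with 1 (LIF) at an unadjusted p below 0.05, where limma called 19.9% of all genes; without C2 replicate 2, 1 member was called. CSF2 had 3 reads in mock and none in the sgRNA libraries, at the limit of 3 that a count of 0 allows, and without the filter it was the one member called (0.0339). In the same libraries the fibroblast sum was 244 to 266 in mock, 1559.9 to 1628 in C1 and 1457 to 1519 in C2. COL3A1 had means of 92.8, 1472 and 1337 in these groups. On average the rest of the fibroblast list together was no higher in C1 or C2 than in mock. The myeloid sum was 114 to 132 in mock, 13.6 to 15.2 in C1 and 9.27 to 13.4 in C2. The basal mammary sum was 204 to 216 in mock, 460.2 to 478 in C1 and 406 to 436 in C2 and the endothelial sum 52.8 to 57.2, 168 to 172 and 163 to 175, and the part of these was not tested.

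With the STING ORF in sgRNA cells of MDA-MB-436, 8 of 8 tested members rose, where 21.1% of all genes passed and 9.2% were higher. The members' median log2 fold change was 1.91, against -0.01 for all genes, and all 8 had groups that did not overlap, as did 61% of genes. IL6 was at 84.4 and 88.7 with the GFP ORF and 673 and 625 with the STING ORF. PTGS2 was at 22 and 42.9 with GFP and 235 and 234 with STING. IL1A was at 21.1 and 34.3 with GFP and 168 and 213 with STING. The 3 genes were several-fold higher in each STING ORF library than in each GFP ORF library, with log2 fold changes of 2.89 ± 0.11 (IL6, limma adjusted p = 3.54e-20), 2.89 ± 0.20 (PTGS2, 5.99e-13) and 2.76 ± 0.20 (IL1A, 1.86e-12).

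CSF2 in MDA-MB-436 was at 26.6 and 22.9 with GFP and 82.7 and 91.4 with STING (1.78 ± 0.22). IL1B was at 37.6 and 39.1 with GFP and 121 and 126 with STING (1.66 ± 0.19). LIF was at 146 and 124 with GFP and 293 and 299 with STING (1.13 ± 0.12). All 3 were higher in each STING ORF library. IL33 was at 7.34 and 1.91 with GFP and 25.7 and 14.6 with STING (2.05 ± 0.47, limma adjusted p = 0.00203), on 10 and 38 reads in all. IL18 was at 193 and 221 with GFP and 284 and 263 with STING, the smallest of the increases (0.40 ± 0.12, adjusted p = 0.0123). IL18 lost its call without GFP replicate 1 (0.139) or STING replicate 1 (0.114), with DESeq2 (0.121) and without the filter (0.113), and IL33 without the filter (0.131). IL11, below the filter, had 3 reads with GFP and 24 with STING, 9.2-fold higher by normalised means (95% interval 2.7 to 46.1). The myeloid sum was 578 to 663 with GFP and 453 to 493 with STING. The fibroblast sum was 305 to 316 with GFP and 244 to 273 with STING. The endothelial sum was 41.3 to 48.6 with GFP and 55.4 to 57 with STING, and the part of these was not tested.

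In SUM159PT 3 of 5 tested members rose with the STING ORF and 2 did not pass, beside 26% of all genes called (13.2% higher). The groups of 4 did not overlap (63% of all genes), and the median was 0.76 against 0.01. IL6 was at 13.1 and 12.3 with GFP and 39.9 and 55.5 with STING (1.81 ± 0.28, limma adjusted p = 2.29e-05). IL1A was at 6.98 and 4.71 with GFP and 18 and 24.5 with STING (1.70 ± 0.40, adjusted p = 0.00229). LIF was at 20.1 and 26.4 with GFP and 40.9 and 36.3 with STING (0.72 ± 0.26, adjusted p = 0.0384). In each gene both STING ORF libraries exceeded both GFP ORF libraries. PTGS2 was at 12.2 and 11.3 with GFP and 19 and 22.4 with STING, apart in all libraries but not past the threshold (0.76 ± 0.34, adjusted p = 0.0956), and IL18 overlapped (-0.07 ± 0.09).

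The IL6 call in SUM159PT held with each library left out in turn and with DESeq2, while LIF lost its call with DESeq2 (0.33) and without GFP replicate 1 (0.348), GFP replicate 2 (0.0644) or STING replicate 1 (0.0979). Without the filter IL1A (0.0616) and LIF (0.149) did not pass. DESeq2 called 1 member, which was IL6. It gave no adjusted p for IL1A, so IL1A neither passed nor failed with that tool. IL1B and IL11 were below the filter: IL1B had 5 reads with GFP and 14 with STING, and IL11 6 and 1. The myeloid sum was 18.3 to 18.9 with GFP and 8.53 to 28.9 with STING. The fibroblast sum was 851 to 881 with GFP and 306 to 325 with STING, most of it COL3A1 (means of 794 and 237). The basal mammary sum was 227 to 264 with GFP and 84.3 to 91.8 with STING, and their part was not tested.

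**Figure D3:**
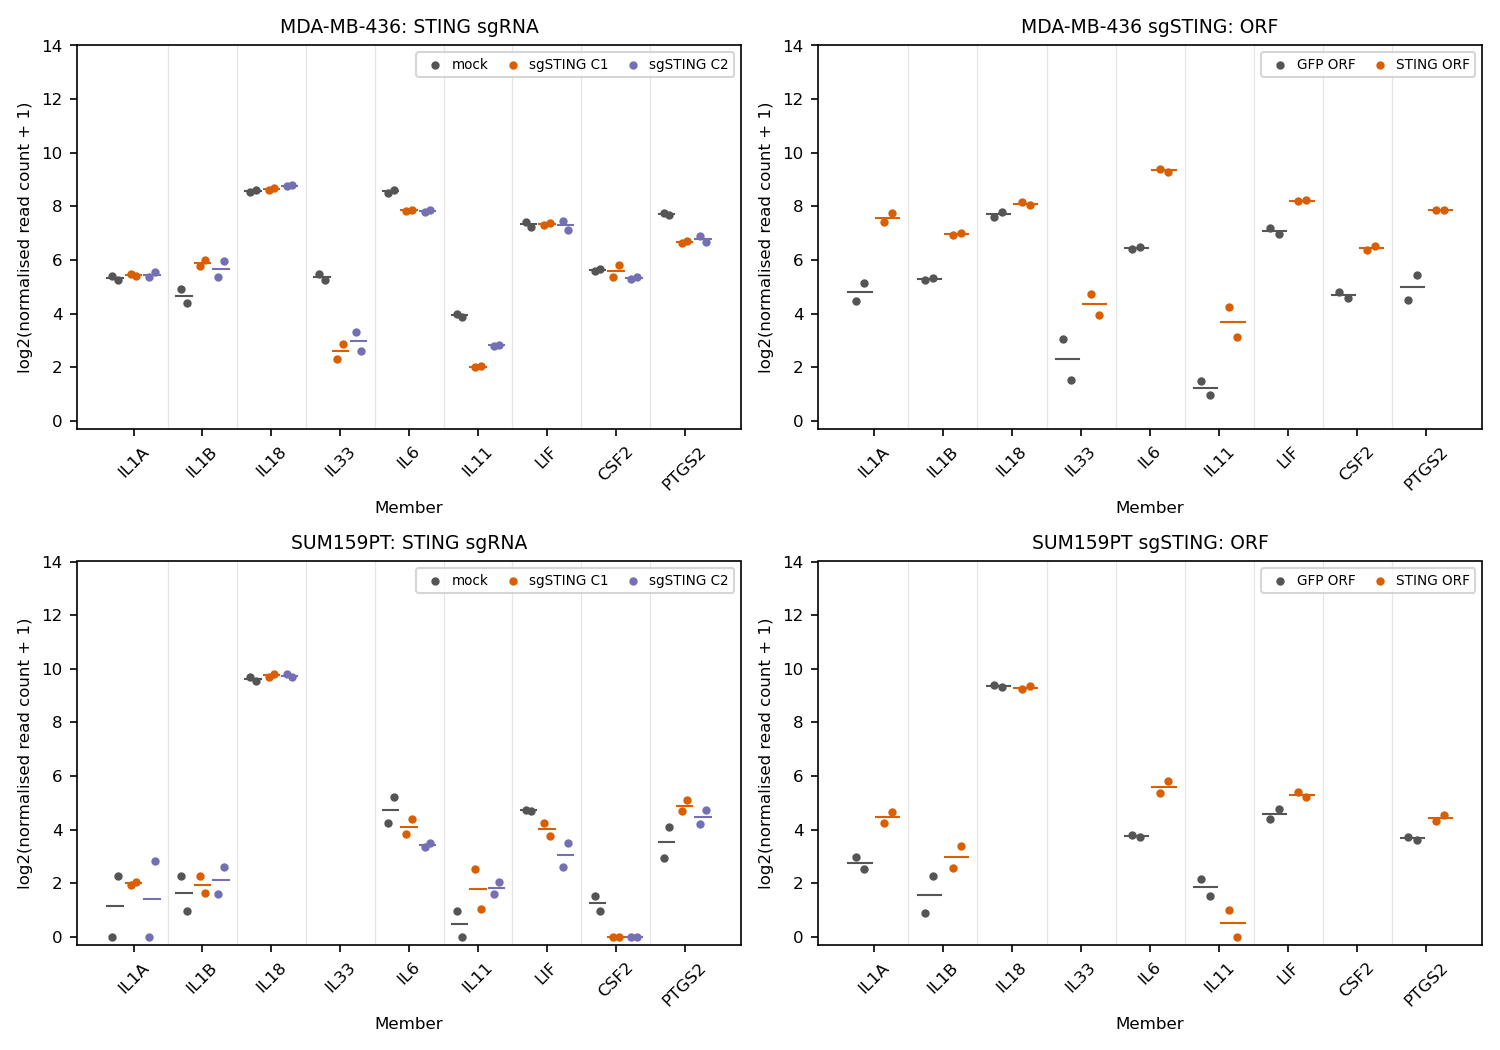
log2(normalised read count + 1) of each member in each library of MDA-MB-436 (top) and SUM159PT (bottom), for mock cells and STING sgRNA samples C1 and C2 (left) and for sgRNA cells with a GFP or a STING ORF (right). Points are libraries and bars group means; at top right every member stands higher with STING, and members without a row in a table have no point.

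In mouse Py230 cells with the Sting1 shRNA, Lif fell and Ptgs2 and Il18 rose with doxycycline, and 2 of the 5 tested members did not pass. Of all genes, 67.8% passed (32.8% higher, 35.1% lower). The groups of 3 members did not overlap (70.8% of all genes), and the median was -0.14 beside -0.01. Lif was at 3592, 4116 and 4104 with vehicle and 1606, 1463 and 1521 with doxycycline. Ptgs2 was at 2463, 3149 and 3285 with vehicle and 4355, 4153 and 4426 with doxycycline. Il18 was at 9.6, 6.27 and 10.7 with vehicle and 17, 17.7 and 21 with doxycycline. Lif was lower and the other two higher in all 3 doxycycline libraries, with log2 fold changes of -1.36 ± 0.05 (Lif, limma adjusted p = 1.34e-17), 0.55 ± 0.07 (Ptgs2, 7.4e-08) and 1.02 ± 0.30 (Il18, 0.00441). Il33 (-0.25 ± 0.17) and Il11 (-0.14 ± 0.28) overlapped between the groups, and Il33 passed without vehicle replicate 2 (0.0276). Il6 was below the filter, with 25 reads with vehicle and 9 with doxycycline, and without the filter it was lower (0.0265). Il1a, Il1b and Csf2 had at most 6 reads in any Py230 library. Myc had a mean of 3108 with vehicle and 994 with doxycycline. The fibroblast marker sum was 392 to 439 with vehicle and 215 to 279 with doxycycline. The basal mammary sum was 572 to 671 with vehicle and 5270.3 to 5922 with doxycycline, with Krt14, a basal keratin, at means of 516 and 5162, and the part of these was not tested.

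**Figure D4:**
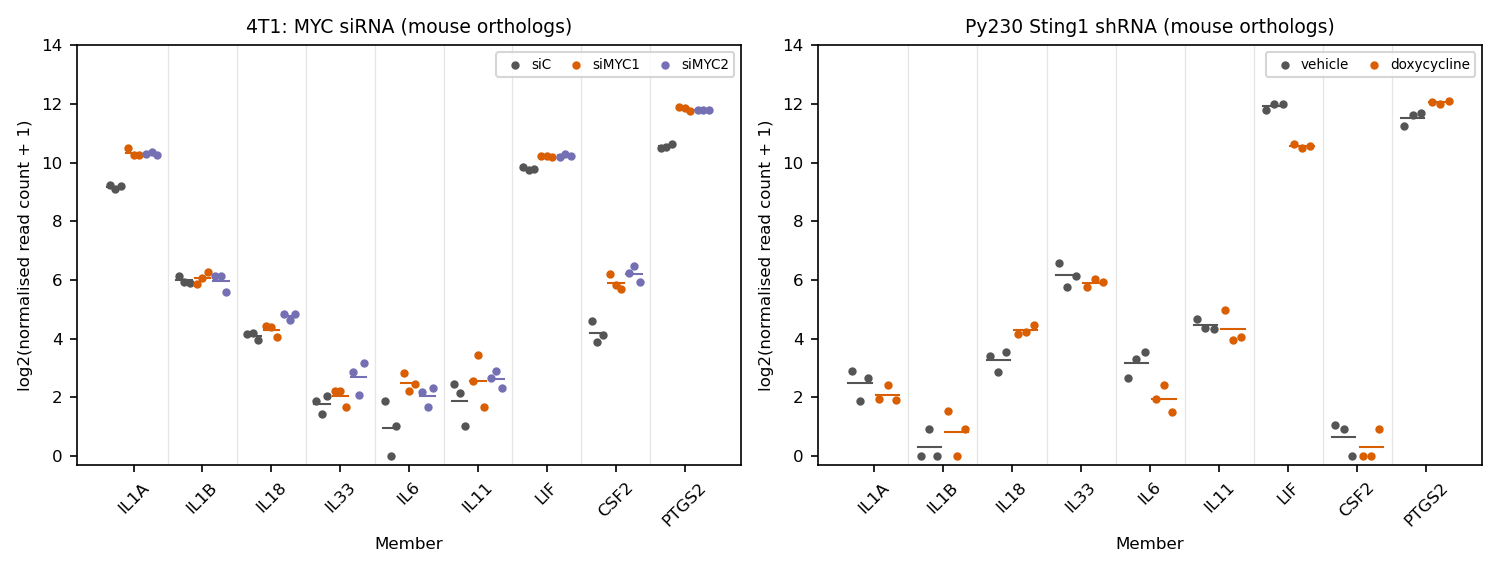
log2(normalised read count + 1) of the mouse orthologs in each library of 4T1 with siC, siMYC1 or siMYC2 (left) and of Py230 with vehicle or doxycycline (right). Points are libraries and bars group means; in 4T1 Il1a, Csf2 and Ptgs2 stand higher with both siRNAs, and in Py230 Lif stands lower with doxycycline.

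The other genes of these pathways were taken from a list of 82 receptors, inhibitors, related ligands, processing enzymes, signalling proteins, transcription factors, decay factors and prostaglandin genes. In Tax-R cells of MDA-MB-436, 5 of 57 tested were higher and 33 lower, where 27.7% of all genes were higher and 26.9% lower. Among the 12 transcription factors 9 fell, led by JUNB, an AP-1 subunit (-1.53 ± 0.08), and ATF3 (-1.40 ± 0.07), and the NF-kB feedback inhibitor TNFAIP3 (-1.38 ± 0.05) and the interleukin-1 receptor kinase IRAK2 (-1.22 ± 0.06) fell with them. The prostaglandin transporter SLCO2A1 also fell (-3.03 ± 0.22), while the receptor IL18R1 rose (0.84 ± 0.17). In SUM159PT Tax-R cells 10 of 59 were higher and 25 lower (23.5% and 22.1% of all genes), and 8 of 12 tested receptors fell. The IL33 receptor IL1RL1 fell from a mean of 1054 normalised reads to 53.2 (-4.28 ± 0.13) and the decoy receptor IL1R2 from 57.6 to 2.03. SOCS3, the STAT3-induced inhibitor of IL-6 signalling, fell in SUM159PT (-1.72 ± 0.08) and in MDA-MB-436 (-0.94 ± 0.06) Tax-R cells.

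In both human lines with MYC siRNA and in 4T1 the list moved in both directions: 29 of 55 pathway genes rose and 17 fell in MDA-MB-436, 29 of 59 rose and 19 fell in SUM159PT, and 25 of 55 rose and 4 fell in 4T1. Of all genes 34% rose and 33.7% fell in MDA-MB-436, 35% and 34.5% in SUM159PT, and 24.7% and 21.5% in 4T1. The shares of pathway genes that fell were thus near those of all genes in the human lines and below them in 4T1. The shares that rose were above those of all genes in each line. The IL11 receptor IL11RA rose in both human lines (1.62 ± 0.20 and 2.38 ± 0.14), as did the IL-6 family ligand CLCF1 (1.75 ± 0.12 and 1.61 ± 0.18) and the adaptor MYD88 (0.71 ± 0.06 and 1.06 ± 0.07). The transcription factors NFKB1 (-0.71 ± 0.05 and -1.04 ± 0.06) and CEBPD (-1.56 ± 0.07 and -0.98 ± 0.05) fell in both. SLCO2A1 and the prostaglandin E2 receptor PTGER4 rose in MDA-MB-436 (4.71 ± 0.35 and 2.52 ± 0.17). The granulocyte factor CSF3 fell in SUM159PT (-1.55 ± 0.13) and its ortholog Csf3 rose in 4T1 (0.81 ± 0.05). In 4T1 the prostaglandin transporter Slco2a1 (1.02 ± 0.05) and the phospholipase Pla2g4a (0.44 ± 0.05), which frees the substrate of Ptgs2, also rose.

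With the STING sgRNA, 30 of 54 pathway genes were lower and 10 higher in MDA-MB-436 (of all genes 23% and 24.8%), with JUNB (-1.93 ± 0.09), CSF3 (-2.37 ± 0.41) and the prostaglandin E2 receptor PTGER4 (-1.24 ± 0.15) among those that fell. In SUM159PT 19 of 57 were lower and 13 higher (19.8% and 19.3% of all genes), with IL1RL1 at -1.27 ± 0.09. With the STING ORF 13 of 53 rose and 11 fell in MDA-MB-436, and 16 of 57 rose and 5 fell in SUM159PT, where 9.2% and 13.2% of all genes rose and 11.9% and 12.8% fell. The genes that rose included TNFAIP3 (1.07 ± 0.09 in MDA-MB-436 and 1.83 ± 0.13 in SUM159PT) and the IRAK2 kinase (0.93 ± 0.11 and 1.12 ± 0.28). NFKBIZ, a cofactor of NF-kB at the IL6 gene, rose in MDA-MB-436 (1.23 ± 0.12) together with the prostaglandin E synthase PTGES (1.07 ± 0.10), which acts after PTGS2, while IL1RL1 (2.47 ± 0.12) and the NF-kB subunit RELB (1.02 ± 0.16) rose in SUM159PT. The IL6 receptor gene IL6R fell with the ORF in both (-0.67 ± 0.17 and -0.80 ± 0.12). In Py230 with doxycycline 25 of 57 were lower and 13 higher (35.1% and 32.8% of all genes), and Fosl1 (-3.26 ± 0.13) and Csf1 (-2.53 ± 0.05) fell furthest among the list's transcription factors and ligands.

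Over the 10 comparisons IL6 passed in all 8 where it was tested, 4 higher and 4 lower, and LIF in 9 of 10, 7 higher and 2 lower. IL1B rose in 5 of 7 and fell in none, and CSF2 rose in 5 of 7 and fell in 1. IL18, tested in all 10, rose in 3, fell in 4 and had its largest difference in Py230. PTGS2 rose in 4, fell in 3 and did not pass in 3. In these 10 comparisons 21.1% to 69.5% of all genes passed. Some of the counted calls were lost in other fits, as given with each comparison above. Levels between genes can be set beside each other only per length, here normalised reads per kilobase of GENCODE v29 exons. On that scale parental MDA-MB-436 cells had IL18 highest (232), then LIF (131), IL1A (126) and IL6 (109), with IL33 last (11.3). In the Tax-R cells IL18 (193) and LIF (169.9) led and IL6 was seventh of 9 (17.9). With the STING ORF in MDA-MB-436, IL6 was the highest member (314), above CSF2 (111) and IL18 (104). IL6 was also the highest member in mock MDA-MB-436 cells (182), above IL18 (144). With the GFP ORF it was below IL18 (41.8 and 78.8). In SUM159PT, IL18 led in each of the 10 groups, from 173 with siMYC2 to 392 in parental cells.

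Across the 40 human libraries, each table centred on its own mean, the members' profiles were compared with 16180 genes as a description, since libraries share tables and lines. The genes most like IL6 were the long non-coding RNA KCCAT211 (Pearson r = 0.91), the Wnt receptor FZD4 (0.91) and the interferon-induced chemokine CXCL11 (0.88). For IL1A the nearest gene of all was PTGS2 (0.75), followed by SPICE1 (0.68) and ZNF567 (0.67). PTGS2 was closest to the complement gene C3 (0.80). IL1B was closest to RND3 (0.82), KLF10 (0.79) and ZNF426 (0.78), and IL18 to PAXIP1 (0.85), IFRD1 (0.85) and CCDC50 (0.84). IL11 was closest to SLC27A1 (0.92), LTBP3 (0.92) and SLC25A29 (0.91), and LIF to DMBT1 (0.87), RP11-1069G10.2 (0.86) and FMNL3 (0.84). CSF2 and IL33, without a row in every human table, were left out of this comparison. Among the other members, the pairs ran from -0.51 for IL18 with LIF to 0.75 for IL1A with PTGS2, with 0.62 for IL6 with IL11.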

How the data were processed

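RNA was extracted with a Maxwell simplyRNA kit and libraries followed Illumina protocols, per the labels. HISAT2, StringTie, featureCounts and DESeq2 are listed in the submitters' processing notes, which give no version or role; the genome build and the strand setting were not given in the sources used here. The deposited values are a signal, gene counts that the authors divided by a size factor within each of 10 tables, so levels are compared only within a table. Dividing each library by its smallest step returned whole reads for 100% of values (tolerance 0.05 reads), and totals of 5663610 to 13191675 reads per library.

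Genes whose mean over a table reached 10 were fitted together on log2(value + 1) with limma 3.58.1 (R 4.3.3), empirical Bayes moderation, all groups of a table in the fit and Benjamini-Hochberg adjustment over all genes tested; an adjusted p below 0.05 is called passed. Log2 fold changes are on the log2(value + 1) scale, which understates changes of low genes, and errors are standard errors. Ratios of normalised means that rest on few reads carry exact 95% intervals for counting error. These were taken from the reads, with 3 reads as the limit for a count of 0. The fits were tested on simulated data. As alternatives the pseudocount was set to 4, the filter dropped, the values quantile normalised, the replicate number added as a block, edgeR 4.0.16 (quasi-likelihood) and DESeq2 1.42.0 run on the recovered reads, and each reagent used alone, each library left out, and both MDA-MB-436 Tax-R libraries merged to 1 sample. Named genes are the 9 members, STING and MYC, up to 2 called pathway genes per role with the largest change in a comparison, and the 3 genes most correlated with each member that had a mean of 10 or more and a row in every human table. The members and lists were chosen with earlier results of these data known.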

Additional observations from a re-analysis of the deposited data

Results flagged for a closer look

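Several members moved one way in every library of one cell line and the opposite way in every library of another under the same comparison; none of these differences between lines was tested, because the tables were normalised separately. From parental to Tax-R cells, IL1A changed by -1.13 on the log2 scale in MDA-MB-436 and 0.60 in SUM159PT, and CSF2 by -0.54 and 1.35. The CSF2 calls were lost with DESeq2 in both lines (adjusted p of 0.157 and 0.0837). That of MDA-MB-436 was also lost with quantile normalisation. IL1B had a difference of -0.32 in MDA-MB-436, which did not pass (limma adjusted p = 0.0626), and of 0.55 in SUM159PT, a call lost with DESeq2, without the filter and without any of 3 of the 4 libraries. In the libraries labelled siMYC, IL1A changed by -0.26 in MDA-MB-436 and -0.98 in SUM159PT, and its ortholog Il1a by 1.15 in 4T1. The MDA-MB-436 decrease did not pass with siMYC2 alone (-0.12, limma adjusted p = 0.199). PTGS2 had a difference of -0.30 in MDA-MB-436 with siMYC, which did not pass the test, and Ptgs2 changed by 1.25 in 4T1. With the STING sgRNA, PTGS2 changed by -0.99 in MDA-MB-436 and 1.16 in SUM159PT, the latter a call lost with DESeq2, without the filter and without mock replicate 1.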

How the results depend on the processing

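The number of members called stayed within 1.5 times of the reported one in all comparisons under a pseudocount of 4, quantile normalisation, edgeR and the replicate block. For the SUM159PT STING sgRNA it went from 4 to 1 without the filter on low values (CSF2, not tested with the filter, while the 4 reported calls were lost), 0 with DESeq2 and 1 with C1 alone. The number does not show which members: CSF2 in MDA-MB-436 Tax-R cells lost its call with quantile normalisation, which also called PTGS2 with MYC siRNA there. For the SUM159PT STING ORF the number went from 3 to 1 without the filter and 1 with DESeq2, which gave IL1A no adjusted p. With each library left out in turn it ran from 6 to 9 for MDA-MB-436 Tax-R, 5 to 7 for SUM159PT Tax-R, 6 to 7 for SUM159PT MYC siRNA, 2 to 4 for the SUM159PT STING sgRNA, 0 to 1 for its C2 against C1, 7 to 8 and 2 to 3 for the STING ORF in MDA-MB-436 and SUM159PT, and 3 to 4 for Py230, and it stayed at 8 for MDA-MB-436 MYC siRNA, 4 for 4T1, 4 for the MDA-MB-436 STING sgRNA and 0 for the other pairs of reagents. Where an arm was left with 1 library, that library was taken to vary like the others. Signs that turned belonged to differences near 0 that did not pass. Il1b in 4T1 was -0.029 with siMYC2 alone and -0.025 to 0.11 over the libraries left out. LIF with the STING sgRNA in MDA-MB-436 was 0.013 with quantile normalisation, 0.015 with C1 alone and -0.10 to 0.081 over the libraries left out, and Il11 in Py230 was -0.47 to 0.047 over them.

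Over all genes, DESeq2 called 5913 in place of 10421 for MDA-MB-436 Tax-R, 4447 of 8386 for SUM159PT Tax-R, 4265 of 7316 and 3198 of 5927 for the STING sgRNA in MDA-MB-436 and SUM159PT, 1090 of 3134 and 1645 of 3875 for the ORF, and 31 of 122 and 969 of 3025 for C2 against C1; without the filter there were 328 and 884 for the ORF and 0 and 0 for C2 against C1, and 0 in place of 30 for siMYC2 against siMYC1 in MDA-MB-436, where edgeR called 95. With C1 alone the SUM159PT sgRNA gave 3487. Libraries left out gave 1258 to 3608 (MDA-MB-436) and 1252 to 5567 (SUM159PT) for the ORF, 4 to 371 and 1234 to 3231 for C2 against C1, and 6 to 67 for siMYC2 against siMYC1 in MDA-MB-436. The cause was not tested. The deviations of same-numbered libraries had correlations of -0.09 to 0.11. The labels do not say whether a number marks a shared culture or day, so the main fit used no pairing. With the replicate block, IL1B in MDA-MB-436 Tax-R cells passed (limma adjusted p = 0.0448, 9 members in place of 8). Calls over all genes in MDA-MB-436 went from 30 to 71 for siMYC2 against siMYC1. For C2 against C1 there they went from 122 to 195. Members with under 10 normalised reads are limited by depth.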

Other observations

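Groups of nominally like cells had different levels of some members in different tables, which were normalised separately and are set side by side as values only. IL1A was at 143 and 189 normalised reads in parental SUM159PT libraries and at 0 and 3.84 in the mock libraries of the CRISPR table. LIF was at 184 and 219 in parental and 25.7 and 25 in mock libraries of SUM159PT. PTGS2 was at 115 and 129 in parental and 6.68 and 16.3 in mock libraries, while IL18 was at 1020.5 and 1043 and at 823 and 744. In MDA-MB-436, IL1A was at 274 and 259 in parental and 41 and 36.9 in mock libraries. Tax-R libraries of MDA-MB-436 without an siRNA label had PTGS2 at 129 and 141, and those given siC had 47.9 and 47.6. IL1A stood at 119 and 123 in the Tax-R libraries without an siRNA label and at 334 and 356 in the siC libraries.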
